A study of Mus musculus with 6 samples.

Results

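ATP-binding cassette (ABC) transporters are membrane pumps that spend ATP to move drugs, conjugates, lipids and ions across membranes. Their genes were examined in RNA-seq of mouse small-intestinal enteroids, which are epithelial cultures grown from crypts, with and without IL-22, a cytokine whose epithelial receptor signals through STAT3. The genes were chosen by name: every gene of the authors' deposited table whose symbol is Abc, a letter from a to g and a digit. The choice found 4 of 690 genes, namely Abcb1a, Abcb1b, Abcc2 and Abcc6, and all 4 were lower with IL-22.

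The IL-22 group was 2 wells from 1 mouse, and the control group was 4 untreated wells from 2 mice. The IL-22 wells carry mouse number 1, as do some of the control wells, and mouse number 2 is among the controls alone. All were enteroids of C57BL/6J mice without necrotizing enterocolitis, the bowel disease of newborns that the series is about, and all had spent 4 days in differentiation medium before the 24 hours with or without IL-22. The labels give the IL-22 dose as 2 ng/ml, whereas the table's header names the treated condition with 100 ng. An age of 6 weeks stands in the labels, whereas their protocol text speaks of adults of 8 weeks or newborns of 7 days, and neither conflict could be settled here.

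Abcb1a and Abcb1b each encode a form of P-glycoprotein, the broad drug efflux pump of the apical membrane, a role held in humans by ABCB1 alone. Abcc2 encodes an apical pump for glutathione, glucuronide and sulfate conjugates, and works behind the enzymes that make those conjugates. Abcc6 encodes a transporter best known from liver and kidney, where it serves the release of ATP from the cell, and loss of its human counterpart causes pseudoxanthoma elasticum.

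The sequences just before the start of transcription given by RefSeq are shown because they are a feature of these genes that the choice by name did not use. RefSeq's promoter table for GRCm38.p6 held 3 of the 4 genes. The 250 bases before each start are given 5′ to 3′ on the gene's strand, which was the plus strand in all 3 genes. They lie at chr5:8566841-8567090 for Abcb1a, chr5:8797897-8798146 for Abcb1b and chr19:43782058-43782307 for Abcc2. Capitals mark the matches to the motifs named in the next paragraph.
Abcb1a: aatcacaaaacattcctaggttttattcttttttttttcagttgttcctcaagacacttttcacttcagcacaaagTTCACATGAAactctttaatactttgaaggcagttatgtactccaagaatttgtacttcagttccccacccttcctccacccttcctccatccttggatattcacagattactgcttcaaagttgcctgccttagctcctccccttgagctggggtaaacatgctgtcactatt
Abcb1b: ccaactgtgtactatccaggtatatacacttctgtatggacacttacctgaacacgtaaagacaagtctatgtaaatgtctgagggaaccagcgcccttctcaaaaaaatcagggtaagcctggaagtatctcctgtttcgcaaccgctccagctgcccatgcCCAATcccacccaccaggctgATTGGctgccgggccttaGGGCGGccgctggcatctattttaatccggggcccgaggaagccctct
Abcc2: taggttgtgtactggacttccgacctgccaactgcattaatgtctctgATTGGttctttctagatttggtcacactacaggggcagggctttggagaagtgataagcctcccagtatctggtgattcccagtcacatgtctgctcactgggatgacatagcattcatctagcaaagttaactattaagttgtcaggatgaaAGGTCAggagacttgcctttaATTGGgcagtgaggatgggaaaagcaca

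Both strands were searched for 7 motifs. The palindrome read by STAT proteins, TTCNNNGAA, was in none of the 3 promoters, and 7.02% of 32851 RefSeq promoters of the same length held it. The palindrome with a longer spacer that STAT6 prefers, TTCNNNNGAA, occurred in Abcb1a, as TTCACATGAA between positions -174 and -165 from the start, and 5.85% of all promoters held it. Abcc2 held AGGTCA, a nuclear receptor half-site, between -49 and -44, as did 14.0% of all promoters at some position, and it held the box CCAAT on the minus strand at -202 to -198 and at -28 to -24. Abcb1b held CCAAT at -87 to -83, the same letters on the minus strand at -66 to -62, and the GC box GGGCGG at -48 to -43. The box CCAAT was in 33.8% of all promoters, and the GC box was in 32.7%. The TATA box, searched as TATAAA, was in none of the 3 and in 12.4% of all promoters. The HNF1 half-site, searched as GTTAAT, was in none of the 3 and in 6.43% of all promoters. No 2 of these matches overlapped. G and C made up 40.4% of the Abcb1a promoter, 52.8% of the Abcb1b promoter and 45.6% of the Abcc2 promoter, with a median of 52.4% over all promoters. The pair of neighbouring P-glycoprotein genes therefore had no motif of this search in common in these windows. The windows rest on the starts that RefSeq gives, and whether these cells use those starts was not tested. A match here is a string of letters, and no binding was measured.

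Values are in RPM, the reads of a gene per 1000000 reads of its library. The authors' deposited table gives each group's mean RPM with its standard error (SEM), the mean number of raw reads, and the ratio of the IL-22 mean to the control mean. Its 690 genes are those the authors had selected as different: the smallest fold in it is 2.00 and the largest p-value 0.0239. The differences described here therefore passed a selection on the same contrast, and the authors' p-values describe them without testing them anew. Genes outside the table were not analysed here. The table lists 423 genes as lower with IL-22, which is 61.3% of its genes, and 267 as higher, which is 38.7%. The 4 of 4 transporters on the lower side are read against that 61.3%. The median fold of the 4 genes was 3.30 lower, against 2.70 lower over all 423 lower genes, and their median log2 ratio was -1.72, against -1.12 over all 690 genes.

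RefSeq names 50 mouse genes by the same rule, of which 46 are outside the table. The table held 2 of 10 Abcb genes and 2 of 10 Abcc genes, and none of 16 Abca, 4 Abcd, 1 Abce, 3 Abcf and 6 Abcg genes. Family members that move sterols and lipids, in the Abca and Abcg groups, were therefore not analysed here. Depth was 32500000 and 29900000 reads in the 2 IL-22 libraries and between 22600000 and 36600000 reads in the 4 control libraries, so that 3 reads of a gene correspond to 0.0924 and 0.1004 RPM in the IL-22 libraries and to between 0.0820 and 0.132 RPM in the control libraries. All 4 transporters stood above these floors in every library.

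Abcc2, the conjugate pump, had the highest reads of the 4 genes. In the authors' deposited table Abcc2 (Entrez 12780, chromosome 19) averaged 127.1 ± 0.190 RPM with IL-22 and 269.1 ± 7.00 RPM in controls (SEM), which made it the gene with the 60th highest mean with IL-22 and the 40th highest in controls out of 690. Values of single libraries were computed from the mean, the SEM and the mean reads, since each library must hold a whole number of reads. Libraries are named by depth, because no column ties them to a mouse or a well. The deeper IL-22 library held 4132 reads of Abcc2 (127.3 RPM) and the shallower 3791 (126.9 RPM). For the control libraries 12 sets of whole reads fitted, with 263.6 to 289.5 RPM in the deepest, 262.1 to 289.8 in the second, 249.0 to 282.6 in the third and 249.6 to 271.5 in the shallowest. In all 12 sets every control library was above both IL-22 libraries, and the lowest possible control value was 1.96 times the higher IL-22 value. Here and in the genes below, such separation follows a selection on this contrast. The share of the table's other genes that separate in this way was not counted. The fold was 2.12 lower with IL-22 (log2 ratio -1.08 ± 0.04, SE propagated from the SEMs). The authors' deposited table gives a p-value of 0.000173, adjusted 0.00113 by Benjamini-Hochberg over its 690 genes, from a pooled-variance comparison of untransformed RPM.

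Abcb1a, the P-glycoprotein gene with more reads, was lower by a larger factor. In the authors' deposited table Abcb1a (Entrez 18671, chromosome 5) averaged 66.2 ± 3.79 RPM with IL-22 and 222.1 ± 8.67 RPM in controls. The IL-22 libraries held 2025 reads in the deeper (62.4 RPM) and 2090 in the shallower (69.95 RPM). Here 8 sets of whole reads fitted the controls, with 233.2 to 245.2 RPM in the deepest library, 225.1 to 233.5 in the second, 207.9 to 225.1 in the third and 196.8 to 208.4 in the shallowest. The groups did not overlap in any set, and the lowest possible control value was 2.81 times the higher IL-22 value. The shallowest control library was the lowest of the 4 in 7 of the 8 sets. The fold was 3.36 lower with IL-22 (log2 ratio -1.75 ± 0.10), with p = 0.000295 and adjusted p = 0.00150 in the authors' deposited table.

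Abcb1b, its neighbour on chromosome 5 (Entrez 18669), stood at far fewer reads and was lower by a like factor. Its means in the authors' deposited table were 4.66 ± 0.129 RPM with IL-22 and 15.1 ± 0.963 RPM in controls. The IL-22 libraries held 147 reads in the deeper (4.53 RPM) and 143 in the shallower (4.79 RPM). A single set of whole reads fitted the controls, with 592 reads (16.2 RPM) in the deepest, 553 (15.7 RPM) in the second, 449 (16.4 RPM) in the third and 278 (12.3 RPM) in the shallowest library. The shallowest control library lay apart below the other 3, and was still 2.56 times the higher IL-22 value. The fold was 3.25 lower with IL-22 (log2 ratio -1.70 ± 0.10), and the authors' deposited table gives p = 0.00193 and adjusted p = 0.00416. The log2 ratio without that control library was -1.79.

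Abcc6 had the fewest reads of the 4 genes and the largest fold. In the authors' deposited table Abcc6 (Entrez 27421, chromosome 7) averaged 1.00 ± 0.135 RPM with IL-22 and 4.52 ± 0.368 RPM in controls. The IL-22 libraries held 37 reads in the deeper (1.14 RPM) and 26 in the shallower (0.870 RPM). The control libraries held 205 reads in the deepest (5.60 RPM), 148 in the second (4.20 RPM), 118 in the third (4.30 RPM) and 90 in the shallowest (3.97 RPM). The deepest control library stood above the other 3, and the lowest control value was 3.49 times the higher IL-22 value. The fold was 4.50 lower with IL-22 (log2 ratio -2.17 ± 0.23), with p = 0.00325 and adjusted p = 0.00577 in the authors' deposited table. With 63 IL-22 reads in all, the counting interval of the fold was wide: 4.55-fold lower by summed reads over summed depth, with 95% limits of 3.51 and 6.01 (exact conditional binomial). The same interval was 2.08 to 2.18 for Abcc2, 3.29 to 3.52 for Abcb1a and 2.92 to 3.75 for Abcb1b. These limits cover counting error only. Where PCR copies of 1 molecule were counted as separate reads, they are too narrow even for that.

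**Figure D1:**
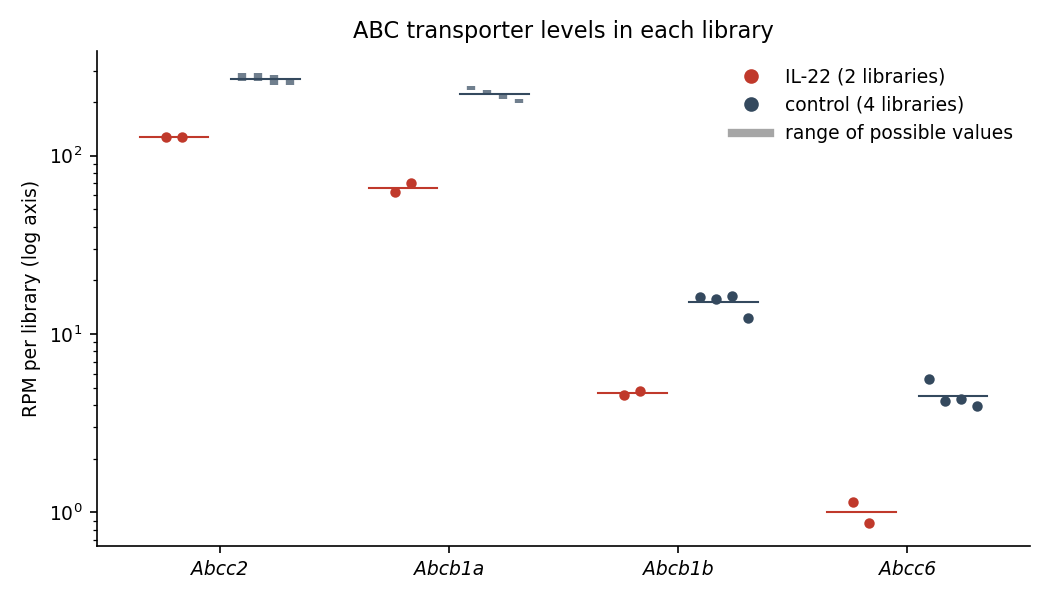
RPM of each ABC transporter gene in each library (log axis), with IL-22 libraries left of control libraries for each gene and, within a group, the deeper libraries to the left. Points are values fixed by the deposited mean, SEM and reads. Short vertical bars are the ranges over the 12 (Abcc2) or 8 (Abcb1a) sets that fitted, and horizontal lines are the group means. No control value reaches down to an IL-22 value in any of the 4 genes. All genes of the table were selected on this contrast, and the share of them that separate in this way was not counted.

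Among the 423 lower genes, ranked from the largest fold down, Abcc6 was at place 70, Abcb1a at 129, Abcb1b at 141 and Abcc2 at 371. A fold of at least 3 was seen in 3 of the 4 genes, against 23.2% of the 690 genes at least 3-fold lower. A fold of at least 4 was seen in Abcc6 alone, against 13.8%. An adjustment over all 21951 protein-coding genes of GENCODE M21 gave every gene outside the table the largest possible p-value. It is an upper bound on the adjusted value only if the authors tested no more genes than that. How many they tested is not known here, and the table also holds genes not classed as protein-coding. By that adjustment Abcc2 (0.0358) and, barely, Abcb1a (0.0476) were under 0.05, and Abcb1b (0.132) and Abcc6 (0.183) were not. So 2 of 4 passed, against 7.97% of the 690 genes passing on the lower side. The p-values are from libraries of 2 and 4 wells that the labels call technical replicates. They measure the spread between wells, of 1 mouse with IL-22 and of 2 mice in controls, and not between treated animals. An exact permutation over these 6 libraries can give no p below 0.0667.

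**Figure D2:**
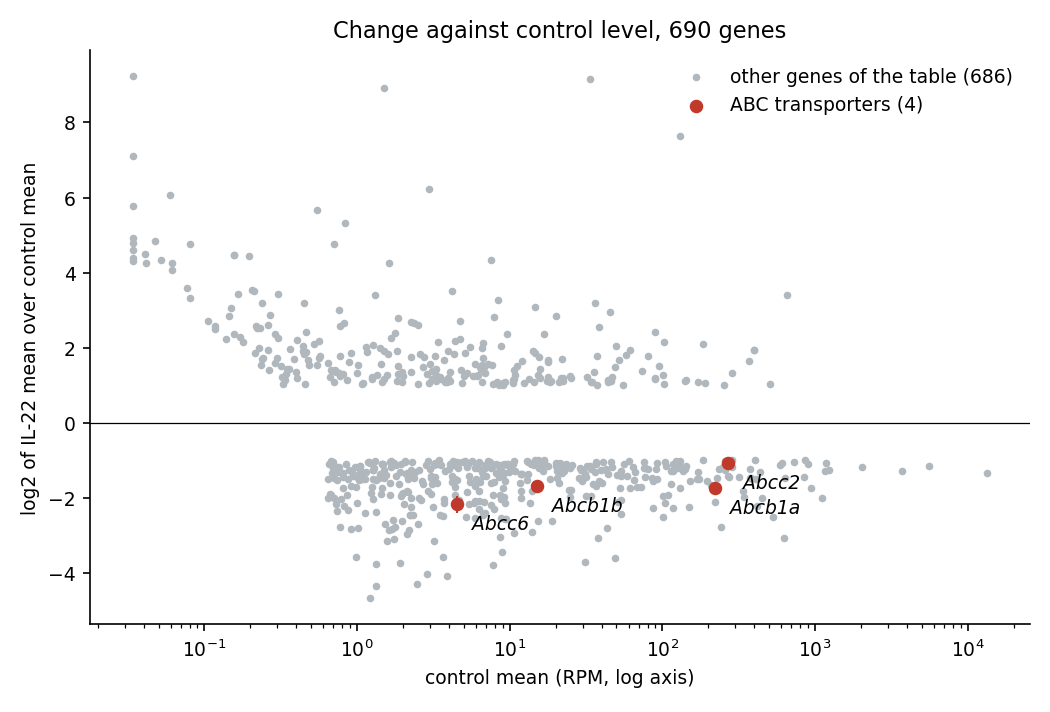
The log2 ratio of IL-22 mean to control mean (y axis) against the control mean in RPM (x axis, log), with 1 point per gene of the deposited table and error bars of 1 SE on the 4 ABC transporters, mostly smaller than the points. The 4 transporters lie below 0, from -2.17 for Abcc6 to -1.08 for Abcc2, and the band without points around 0 is the authors' selection of genes at least 2-fold different.

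The sizes of the 4 differences were compared with each other in 6 pairs, each as the log2 ratio of the pair in every library, with an exact two-sided permutation test over the 15 arrangements of the libraries and Benjamini-Hochberg adjustment over the 6 pairs. Abcc2 was the least lowered. The ratio of Abcb1a to Abcc2 differed by -0.66 on the log2 scale, IL-22 minus control (SE at most 0.108), with p = 0.0667, the smallest the exact test allows, and adjusted p = 0.133. Abcb1b against Abcc2 gave a log2 difference of -0.61 (SE at most 0.120, exact permutation p = 0.0667), and Abcc6 against Abcc2 gave -1.09 (SE at most 0.229, exact permutation p = 0.0667). In these 3 pairs the IL-22 libraries lay outside the range of the controls, but a design of this size cannot reach 0.05. Abcc6 differed from Abcb1a by -0.42 (SE at most 0.292, exact permutation p at most 0.133) and from Abcb1b by -0.48 (SE 0.255, exact permutation p = 0.133), which is under 2 times the SE in both pairs. The P-glycoprotein genes differed from each other by -0.06 (SE at most 0.0964, exact permutation p at least 0.533, adjusted 0.667). Because this test cannot reach 0.05 with any values, it does not decide whether their changes were alike.

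The P-glycoprotein genes kept nearly the same proportion to each other. Reads of Abcb1b were 7.26% of those of Abcb1a in the deeper IL-22 library and 6.84% in the shallower. In the controls the share was 6.60 to 6.94% in the deepest library, 6.72 to 6.97% in the second, 7.28 to 7.88% in the third and 5.89 to 6.24% in the shallowest. Both IL-22 values lay within the span of the controls. These genes share part of their sequence, which bears on how reads are split between them: of the 31-base words of Abcb1a transcripts in GENCODE M21, 75.2% are found in no other gene, and 21.4% are shared with Abcb1b. For Abcb1b 73.2% are unique, and 24.7% are shared with Abcb1a. An unknown part of the reads counted for Abcb1b can therefore have come from Abcb1a, which averaged 222.1 RPM in controls against 15.1 for Abcb1b. The sources used here do not say how the authors' counting treated shared reads. The fold of Abcb1b and its proportion to Abcb1a may thus reflect reads of Abcb1a, which was not tested. Abcb4, which moves phosphatidylcholine into bile and follows Abcb1b along the chromosome, shares 4.43% of Abcb1a's words and 3.41% of Abcb1b's, and is outside the table. Abcc2 and Abcc6 have 99.8% and 100% unique words. The predicted gene Gm42686 runs on the opposite strand over 553 bases (10.1%) of Abcb1a's exons, and Gm5106 over 143 bases (1.79%) of Abcb1b's. The sources used here do not say whether strand was used in counting, so reads of these pairs cannot be told apart.

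Levels are compared between genes only per transcript length, as RPM per kilobase of the longest protein-coding transcript in GENCODE M21. With IL-22 Abcc2 was highest at 15.8 ± 0.0237 RPM per kilobase (SEM), followed by Abcb1a at 13.2 ± 0.759, Abcb1b at 1.08 ± 0.0300 and Abcc6 at 0.202 ± 0.0271. In controls Abcb1a was highest at 44.4 ± 1.74, followed by Abcc2 at 33.5 ± 0.872, Abcb1b at 3.51 ± 0.224 and Abcc6 at 0.909 ± 0.0740. Within each group, neighbours in this order differed by more than the sum of their SEMs, which do not cover the choice of transcript. With IL-22 these SEMs rest on 2 wells of 1 mouse, so the small SEM of Abcc2 is no measure of precision between animals. The 2 highest genes stood in the opposite order with IL-22 and in controls. That reversal rests on the lengths used, 8027 bases for Abcc2 and 4997 for Abcb1a. By RPM alone Abcc2 was above Abcb1a in both groups. As summed RPM the 4 genes came to 198.9 with IL-22 and 510.9 in controls, 2.57-fold lower. Abcc2 made up 63.9% of that sum with IL-22 and 52.7% in controls, and Abcb1a made up 33.3% with IL-22 and 43.5% in controls.

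**Figure D3:**
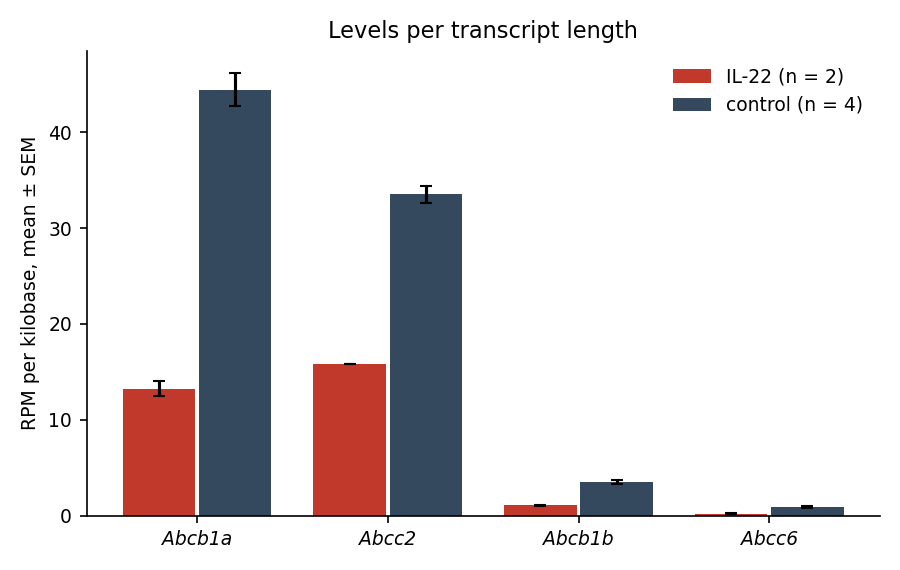
RPM per kilobase of transcript for the 4 ABC transporter genes, IL-22 (left bar of each pair) and control (right bar), as the authors' mean ± SEM divided by the transcript length. Abcb1a is the highest gene in controls (44.4) and Abcc2 the highest with IL-22 (15.8), and Abcc6 is the lowest in both. The order of Abcb1a and Abcc2 in controls depends on the transcript lengths used.

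The 4 control libraries differed from one another in ways that touched these genes. Over the 345 lower genes whose controls had a single solution, the shallowest control library was the lowest of the 4 in 179 (51.9%), and its median level was 0.912 of the control mean. In Abcb1b and Abcc6 that library was also the lowest, and in Abcc2 it was the lowest in 4 of the 12 possible sets. Over the 242 higher genes it was the highest of the 4 in 104 (43.0%). Which mouse that library came from is not known here, and the part of this difference in the transporters' SEMs was not tested.

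The annotation columns of the authors' deposited table give the 4 genes 71 terms in common out of 173. Apart from these genes, the term for ATPases coupled to movement of substances across membranes had a single other gene in the table, Atp8b5, a P-type lipid-transporting ATPase by its family. Atp8b5 averaged 0.534 ± 0.102 RPM with IL-22 and 1.49 ± 0.167 RPM in controls, 2.80-fold lower with adjusted p = 0.0210 in the authors' deposited table. All 4 transporters carry the term apical plasma membrane, which 24 genes of the table have, 9 of them higher and 15 lower with IL-22. Of the 44 genes with transmembrane transporter activity 11 were higher and 33 lower. Drug transmembrane transport was attached to 5 genes, all lower, of which 3 were Abcb1a, Abcb1b and Abcc2. The counts of these terms include the transporters themselves, and 61.3% of all genes of the table were lower.

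Genes that work beside these pumps were taken from lists chosen by function. Of 20 transcription factors that sense xenobiotics and sterols, 1 was in the table: Ppara, the fatty acid receptor, at 43.4 ± 1.66 RPM with IL-22 and 92.1 ± 2.16 RPM in controls, 2.12-fold lower with adjusted p = 0.00102 in the authors' deposited table. The other 19, among them Nr1i2, whose product controls Abcb1a in liver and gut, were not analysed here. Of 18 partner transporters of drugs, bile acids and organic ions, 1 was in the table. This was Slc47a1, which exports organic cations, at 1.583 ± 0.258 RPM with IL-22 and 9.37 ± 0.808 RPM in controls, 5.92-fold lower with adjusted p = 0.00560 in the authors' deposited table. Of 20 genes of lipid and sterol handling the table held 2, both apolipoproteins and both lower. Apoc3 averaged 11.4 ± 3.84 RPM with IL-22 and 36.8 ± 2.26 RPM in controls, and Apoa4 353.2 ± 116.9 RPM with IL-22 and 732.7 ± 39.4 RPM in controls.

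Enzyme families that include makers of the pumps' substrates were in the table in part, and the family members outside it were not analysed here. They were taken by symbol alone, so not every gene counted need be such an enzyme. The table held 61 genes with symbols of the phase 1 and conjugating families. Of these 3 were higher and 58 lower with IL-22, against 38.7% higher and 61.3% lower over all its genes. Of 23 glutathione transferase genes 11 were in the table, and these 11 were lower, by 2.03- to 4.67-fold. Gstm4 averaged 11.2 ± 0.642 RPM with IL-22 and 34.9 ± 0.791 RPM in controls, and Gstm3 averaged 86.5 ± 10.7 RPM with IL-22 and 340.8 ± 8.71 RPM in controls. Of 22 UDP-glucuronosyltransferase genes 6 were in the table, and these 6 were lower, by 2.10- to 4.84-fold, with Ugt1a6a at 290.5 ± 8.17 RPM with IL-22 and 610.3 ± 17.8 RPM in controls. Of 21 Sult sulfotransferase genes 0 were in the table. Of 80 cytochrome P450 genes of families Cyp1 to Cyp4, 28 were in the table, 26 of them lower and 2 higher. The authors' deposited table lists Cyp2j11 at 1.04 RPM with IL-22 and 0.0520 RPM in controls, of which the control mean lies under the 3-read floor. Of 19 protein-coding carboxylesterase genes 10 were in the table, and these and Ces2d-ps, which RefSeq does not class as protein-coding, were lower, by 2.02- to 13.8-fold. Of 7 Aldh1 genes 3 were in the table, 1 higher (Aldh1l1) and 2 lower. Of 15 genes with a Nat symbol 2 were in it, Nat8f1 and Nat8f6, both lower. These families were picked with earlier results of the same data known, and share the libraries of the transporters.

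Markers of the epithelial cell types did not all go the way of the transporters: those of absorptive enterocytes and tuft cells in the table were lower with IL-22, those of Paneth cells were higher, and those of stem cells were split. Of 13 markers of absorptive enterocytes, the cells whose apical membrane carries P-glycoprotein, 7 were in the table and all 7 were lower, by 2.07- to 13.1-fold. Their summed means were 8587 RPM with IL-22 and 20870 RPM in controls. Of 7 Paneth cell markers 3 were in the table, all higher, with summed means of 606.8 RPM with IL-22 and 90.8 RPM in controls. Of 6 tuft cell markers 3 were in the table, all lower, with summed means of 7.17 RPM with IL-22 and 16.7 RPM in controls. Of 5 stem cell markers the table held Prom1, 2.08-fold higher, and Olfm4, 2.43-fold lower, both in the authors' deposited table. No goblet, enteroendocrine, haematopoietic, mesenchymal or endothelial marker of the lists was in the table, and those markers were not analysed here. The part of these markers' cells in the transporters' values was not tested. In bulk cultures fewer cells of a type and less RNA per cell cannot be told apart.

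**Figure D4:**
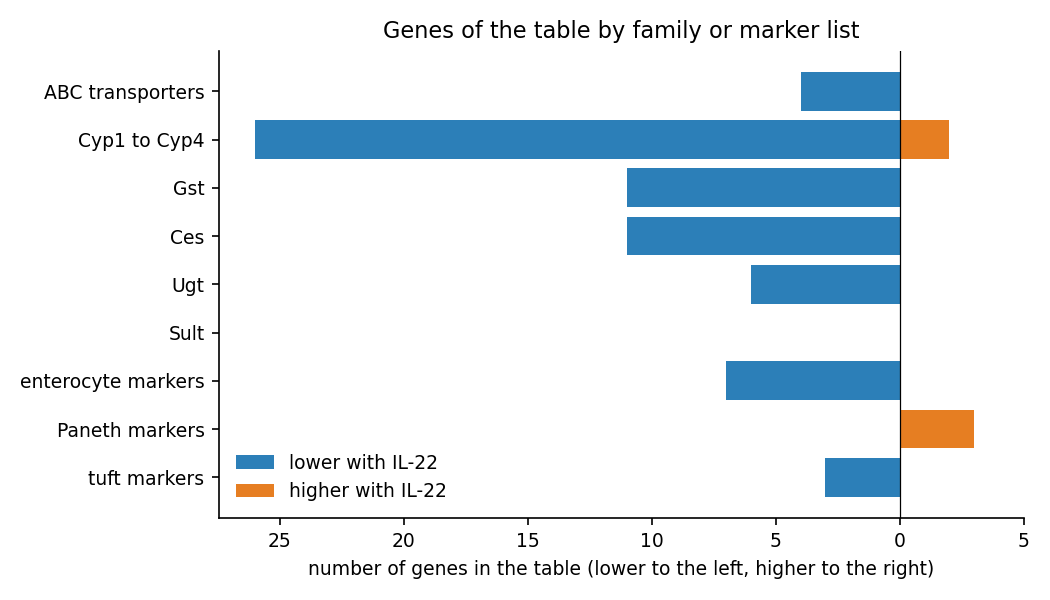
Number of genes of the deposited table in each family or marker list that were lower with IL-22 (bars to the left of 0) or higher (bars to the right). The 4 ABC transporters were all on the lower side, as were the 11 Gst, 11 Ces and 6 Ugt genes and the 7 enterocyte markers that the table holds, while 2 of its 28 Cyp genes and its 3 Paneth markers were on the higher side.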

How the data were processed

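RNA was sequenced as single reads from libraries made with oligo-dT selection and 15 PCR cycles, per the labels' protocols. BWA 0.5.9 and Picard 1.58 are named in the submitters' processing notes. The genome build, the annotation and the tool that counted reads are not given in the sources used. The authors' deposited table gives group means and SEMs in RPM, a unit taken from the values since the headers name none, raw mean counts of reads, the ratio of the means, and p-values with adjusted p-values. A library without reads carried the value of 1 read. The deposited p-values were recomputed to a largest difference of 1.07e-06 as a pooled-variance comparison; the adjustment was over the 690 listed genes alone. No columns of other samples were present.

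Whole reads per library were solved from each mean, SEM and mean count, allowing 1.2 times the rounding error of the last digit given. One solution was found for 592 of 657 genes tried in the controls and for 663 of 663 with IL-22, and the solver was tested on simulated data. Library values of 589 genes entered limma 3.58.1 (R 4.3.3) on log2(RPM + 0.1) or log2(RPM + 1) as alternatives. For Abcb1a and Abcc2 every set that fitted was used in turn, and the largest adjusted p was kept.

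Other alternatives were unequal variances, adjustment over all protein-coding genes, leaving out each library, folds of 3 and 4, and read filters. Scripts ran in Python 3.11.15 with numpy 2.4.6, scipy 1.17.1, pandas 2.3.3 and matplotlib 3.10.9. Of the 690 genes, 679 matched RefSeq by Entrez identifier. Every transporter found by name is reported; other genes are named up to 4 per list in the order of adjusted p, and fewer where the list is only counted. Sizes of enzyme families count RefSeq's protein-coding genes. The members and lists were chosen with earlier results of these data known.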

Additional observations from a re-analysis of the deposited data

Results flagged for a closer look

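The control libraries of Abcb1b held 1 value far from the others. The shallowest control library was at 12.3 RPM and the other 3 at 15.7 to 16.4 RPM. The gap below the second lowest library was 0.832 of the group's range, just past Dixon's 95% limit for 4 values. Chance alone passes that limit in about 1 of 20 groups, and 4 genes were examined. Without that library Abcb1b was 3.45-fold lower with IL-22 (log2 ratio -1.79, adjusted p = 0.00129 by the authors' pooled-variance comparison over the genes with library values). The same measure was 0.797 in Abcc6, 0.445 to 0.764 in Abcb1a and 0.362 to 0.832 in Abcc2 over their possible sets.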

How the results depend on the processing

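All 4 transporters stayed lower with IL-22 with adjusted p under 0.05 in the authors' comparison, with unequal variances, and in limma on log2(RPM + 0.1) and log2(RPM + 1). Every gene of the table was under 0.05 in the authors' comparison. With either added value limma called 347 of its 589 genes lower. Its fit held Abcb1a, Abcc2 and the genes with 1 solution, 345 of them lower, so every lower gene fitted was called. For unequal variances and for the fits without 1 library, the share of other genes passing was not counted. These results therefore do not set the transporters apart from other listed genes. Where the adjustment ran over listed genes, staying under 0.05 was close to fixed in advance, because those genes were selected on the same libraries. Adjustment over all protein-coding genes, an upper bound only if the authors tested no more genes, left 2 of the 4 (Abcb1a and Abcc2). Leaving out each library in turn left all 4 genes lower, with folds between 2.10 and 5.19 lower. A fold limit of 4 left 1 gene (Abcc6), and a limit of 3 left 3. At least 10 mean reads in each group, at least 100 in the higher group, or 1 RPM added to both means left 4. Over 40 single-gene alternatives, 38 kept their direction and their side of 0.05, and 2 (Abcc6 and Abcb1b, under the protein-coding adjustment) kept their direction only. Adjusted p ranged from 5.31e-06 to 0.183 for Abcc6, from 8.99e-08 to 0.0476 for Abcb1a, from 4.08e-06 to 0.132 for Abcb1b and from 5.39e-07 to 0.0358 for Abcc2. With 1 RPM added before the log, the log2 difference of Abcc6 was -1.46 in limma, whose fit covered only genes already selected as different. No paired analysis was possible because no column holds a single library and the recovered libraries are known by depth alone. Count models and other library scalings were not run, because every gene in the table was selected as different. The depth limits Abcc6 most, with 63 IL-22 reads in all. The design limits every gene: 1 treated mouse, wells counted as replicates, and a dose that the labels and the header give differently.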
